A study of Caenorhabditis elegans with 6 samples.

Results

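The 6 genes elt-1, lin-26, elt-3, egl-18, elt-6 and nhr-25 code for transcription factors of epidermal fate in the nematode Caenorhabditis elegans. They were chosen by name from what is known of the epidermis, at a time when earlier results of these data were known. They are 6 of the 46659 rows of the table of read counts, and all 6 passed the filter on low counts. RNA depleted of ribosomal RNA was sequenced from embryos of 2 genotypes. The first was the double mutant dot-1.1(knu339); ced-3(n1286) and the second the single mutant ced-3(n1286), with 3 libraries each, called biological replicates in the labels. Both genotypes therefore carry the mutation in ced-3, which encodes the caspase of programmed cell death, and only the first also carries the one in dot-1.1, the worm counterpart of the histone H3 lysine 79 methyltransferase DOT1L. The eggs were released by alkaline hypochlorite from egg-laying adults grown at 20 °C, so each library holds whole embryos of mixed developmental age. The labels do not describe the effect of the knu339 allele, nor whether the replicates were grown as separate cultures, so that p-values measure the spread between these libraries.

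The epidermis of C. elegans is set up during embryogenesis, when GATA factors, which are zinc finger proteins that bind the base sequence they are named for, commit cells to an epidermal fate and switch on further regulators. elt-1 acts at the top of this cascade, and embryos without it make neurons and muscle in place of epidermis. lin-26 codes for a zinc finger protein needed to keep the epidermal and other epithelial fates, elt-3 codes for a GATA factor of the main body epidermis, egl-18 and elt-6 code for GATA factors of the lateral seam cells, and nhr-25 codes for a nuclear receptor of the Ftz-F1 family that acts in epidermal differentiation and moulting.

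None of the 6 factors passed the edgeR test between the genotypes. Fitted levels were lower in the double mutants for 5 of them and higher for elt-6. The log2 fold changes, double over single mutant, ran from -0.41 for elt-1 to 0.11 for elt-6, with a median of -0.19, against a median of -0.02 over all 17365 tested genes. The test was the quasi-likelihood test of edgeR, without a term for the replicate number, and a gene was called at a Benjamini-Hochberg adjusted p under 0.05 over all tested genes. edgeR called 0 of the 6 factors, with 1 factor, elt-1, at an unadjusted p under 0.05. The same test put 2097 of the 17365 tested genes at such a p. Over the whole table, 0.0806% of the tested genes were called higher and 0 genes lower. With the shared replicate number of the libraries as a block, 0 factors were called again, while 2.57% of tested genes were called higher and 1.45% lower. The adjusted p of this blocked edgeR fit was 0.467 for elt-3, 0.636 for egl-18, 0.65 for elt-6 and 0.662 for nhr-25. DESeq2 without the block called 0 factors, against 1.99% of the genes it tested higher and 0.469% lower. DESeq2 with the block called 1 lower factor, elt-1, against 6.22% of the genes it tested higher and 6.32% lower.

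elt-1 (W09C2.1, chromosome IV, 9614995 to 9620280, plus strand, WBcel235) was the only factor whose genotypes did not overlap. Its level was 43.8, 55.6 and 46.3 CPM (counts relative to the TMM-scaled library total) in the 3 double mutant libraries, against 70.1, 58.7 and 64.2 CPM in the 3 single mutant libraries. Every double mutant library was below every single mutant library, a separation in this direction that was also found for 7.91% of all tested genes. The means were 48.6 ± 6.21 CPM in the double mutants and 64.4 ± 5.71 CPM in the single mutants (SD, n = 3 each). The fitted level in the double mutants was 0.754 times that in the single mutants, with a 95% interval of 0.609 to 0.934 that is not adjusted for the number of genes (-0.41 ± 0.14 SE on the log2 scale; adjusted p = 0.317 in edgeR). Between same-numbered libraries, elt-1 was below its single mutant partner in 3 of 3 pairs, as were 25.3% of tested genes. The fit with the replicate block gave -0.41 ± 0.12 with an adjusted p of 0.0899 (edgeR), and DESeq2 with the block gave -0.42 with an adjusted p of 0.0263. The blocked edgeR fit gave -0.29 without pair 1 (adjusted p = 0.408), -0.58 without pair 2 (adjusted p = 0.000331) and -0.35 without pair 3 (adjusted p = 0.356). Over the whole table, that fit called 11 genes without pair 1, 2476 without pair 2 and 181 without pair 3, against 697 with all pairs. Over 15 alternatives the adjusted p of elt-1 ran from 0.000331 to 0.625. In RNA of embryos of mixed age, fewer epidermal cells, less elt-1 RNA per cell and a different mix of ages cannot be told apart. This holds for every value below.

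**Figure D1:**
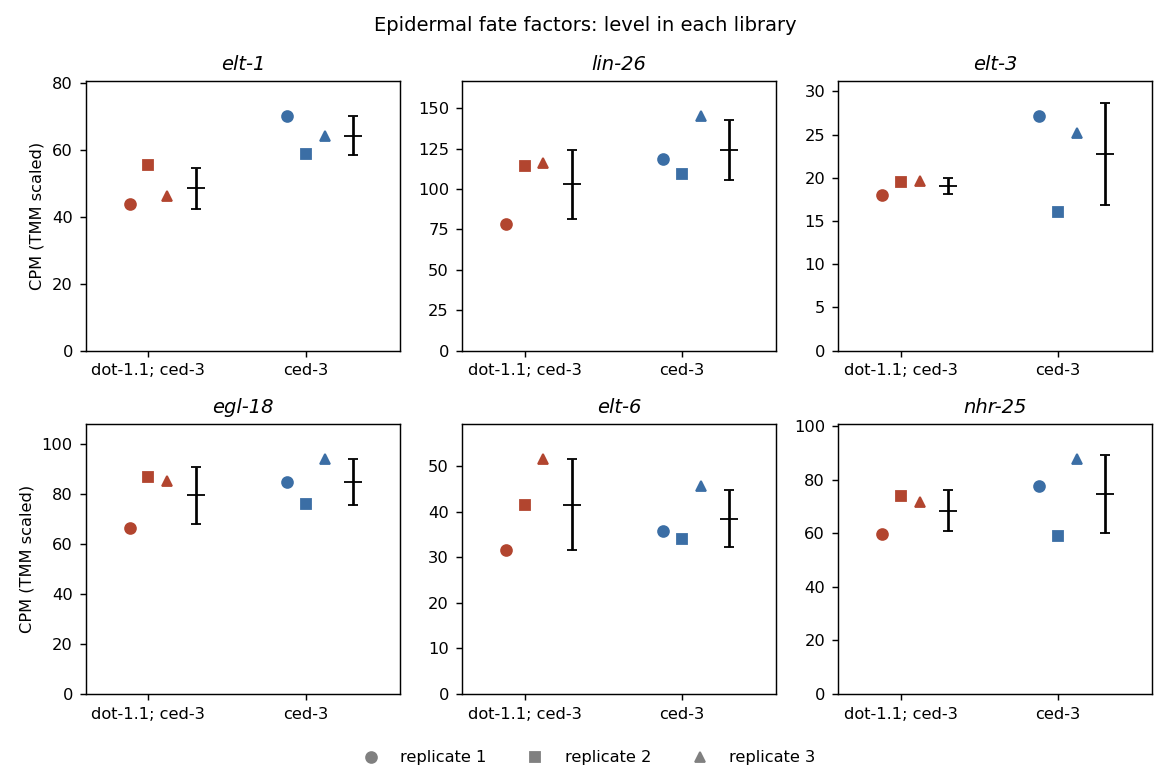
Level of each of the 6 factors in every library, in CPM scaled by TMM on axes that start at 0, with the double mutants (red) left of the single mutants (blue); symbols mark the replicate number and black bars the mean ± SD of 3 libraries. The genotypes are apart for elt-1, at 43.8 to 55.6 CPM against 58.7 to 70.1 CPM, and overlap for the other 5 factors.

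lin-26 (F18A1.2, chromosome II, 7682198 to 7684764, plus strand) had the highest mean level per length of the 6. It was at 78.3, 114 and 116 CPM in the double mutants, against 118.8, 109.2 and 145 CPM in the single mutants. The groups overlapped, since single mutant replicate 2 lay below 2 of the double mutant libraries, and double mutant replicate 1 stood below all others. The fitted ratio was 0.827, with an interval of 0.626 to 1.09 (log2 fold change -0.27 ± 0.18 SE; adjusted p = 0.545, edgeR). With the replicate block the interval was 0.67 to 1.004 times and the adjusted p was 0.212 (edgeR).

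elt-3 (K02B9.4, chromosome X, 13934874 to 13941216, plus strand), the GATA factor of the main body epidermis, was the lowest of the 6. Its level was 18, 19.5 and 19.7 CPM in the double mutants, which lay close together. In the single mutants it was 27.1, 16.02 and 25.1 CPM, so that replicate 2 was below and replicates 1 and 3 were above all double mutant libraries. The fitted ratio was 0.837, with an interval of 0.606 to 1.16 (adjusted p = 0.619, edgeR).

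The seam cell factors egl-18 and elt-6 lie side by side on the plus strand of chromosome IV, with 136 bp between the annotated end of egl-18 (F55A8.1, 1902322 to 1917840) and the start of elt-6 (F52C12.5, 1917977 to 1921643). egl-18 was at 66.4, 86.7 and 85.3 CPM in the double mutants, against 84.7, 75.7 and 93.8 CPM in the single mutants. elt-6 was at 31.5, 41.6 and 51.5 CPM in the double mutants, against 35.7, 34.1 and 45.6 CPM in the single mutants. Both overlapped between genotypes. The fitted ratio was 0.938 for egl-18 (interval 0.749 to 1.17; adjusted p = 0.807, edgeR). For elt-6 it was 1.08 (interval 0.791 to 1.47; adjusted p = 0.834, edgeR). These intervals leave room for moderate differences in either direction. The estimates of both genes changed sign when a single library was left out, egl-18 to 0.0067 without double mutant replicate 1 and elt-6 to -0.069 without double mutant replicate 3 (log2 fold changes).

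Because the 2 genes are neighbours and related GATA factors, their balance was compared as well. Counts per kb of exon of egl-18 made up 63.7%, 63.5% and 58.0% of the sum of both genes in the double mutants, against 66.4%, 64.9% and 63.2% in the single mutants. Double mutant replicate 3 had the lowest share, and the other 2 double mutant libraries lay above the lowest single mutant library. The means were 61.7 ± 3.24% in the double mutants and 64.8 ± 1.63% in the single mutants (SD, n = 3 each), a difference of -3.11 percentage points (exact permutation test, two-sided p = 0.3; the smallest p that 3 against 3 libraries allow is 0.1). Within same-numbered pairs, the double mutant had the lower share in 3 of 3 (exact paired permutation test, two-sided p = 0.25, the smallest that 3 pairs allow; added after the values were seen). Without double mutant replicate 3 the difference was -1.24 points. The labels do not state how reads matching more than 1 gene were counted, and the balance of related genes carries that uncertainty.

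nhr-25 (F11C1.6, chromosome X, 13008493 to 13013964, plus strand), the nuclear receptor, was at 59.6, 73.9 and 71.8 CPM in the double mutants, against 77.7, 59.0 and 87.6 CPM in the single mutants. The single mutant libraries spanned the whole range of the double mutants, with replicate 2 below and replicates 1 and 3 above all of them. The fitted ratio was 0.916 (interval 0.708 to 1.18; adjusted p = 0.764, edgeR). Without single mutant replicate 3 the log2 fold change was 4.8e-05, so that the sign of the estimate rested on that library.

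**Figure D2:**
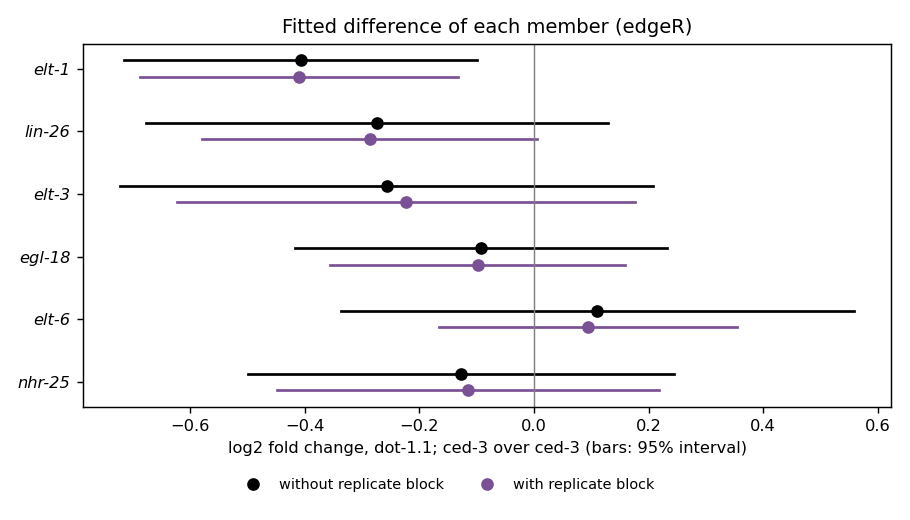
Fitted log2 fold change of each factor, double over single mutant, with its 95% interval from edgeR, without the replicate block (black) and with it (purple). The intervals of elt-1 lie below 0 in both fits, while those of the other 5 factors include 0; the intervals are not adjusted for the number of genes tested, and no factor was called in either fit.

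Levels can be set side by side between the factors only per length. Over the 6 libraries the mean level was 53.4 CPM per kb of exon for lin-26, 48.7 for egl-18, 28.5 for elt-6, 27.8 for nhr-25, 25.5 for elt-1 and 14.3 for elt-3. egl-18 exceeded elt-6 in all 6 libraries with no overlap of their ranges, and elt-1 likewise exceeded elt-3. The order of the other neighbours was not stable between libraries: lin-26 exceeded egl-18 in 5 of 6, elt-6 exceeded nhr-25 in 3 of 6 and nhr-25 exceeded elt-1 in 4 of 6. Among tested protein-coding genes, these levels per kb ran from the 56.3rd percentile for elt-3 to the 85.9th for lin-26. In the double mutants, the means per kb were 48.3 ± 9.999 CPM for lin-26 and 47.1 ± 6.74 CPM for egl-18, and in the single mutants 58.4 ± 8.72 CPM for lin-26 and 50.2 ± 5.35 CPM for egl-18 (SD, n = 3 each).

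The difference between the genotypes was not the same in every same-numbered pair of libraries. In pair 1, all 6 factors were lower in the double mutant, by 0.18 (elt-6) to 0.68 (elt-1) on the log2 scale. In pair 2, 5 factors were higher in the double mutant, by 0.064 (lin-26) to 0.33 (nhr-25), and elt-1 was lower by 0.08. In pair 3, 5 factors were lower and elt-6 was higher, at 0.18. Over all tested genes the share that was lower in the double mutant was 52.1%, 52.5% and 50.1% in pairs 1, 2 and 3. Double mutant replicate 1 was the lowest of the 6 libraries for 4 factors (elt-1, lin-26, egl-18 and elt-6), as it was for 20.7% of tested genes. Single mutant replicate 2 was the lowest for elt-3 and nhr-25, as for 17.9% of tested genes, and single mutant replicate 3 was the highest for lin-26, egl-18 and nhr-25, as for 13.03% of tested genes. The summed level of the 6 factors was 297.5, 391 and 390.5 CPM in the double mutants, against 414, 353 and 461 CPM in the single mutants. Double mutant replicate 1 was the lowest of these sums, and the other 2 double mutant libraries lay within the range of the single mutants.

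**Figure D3:**
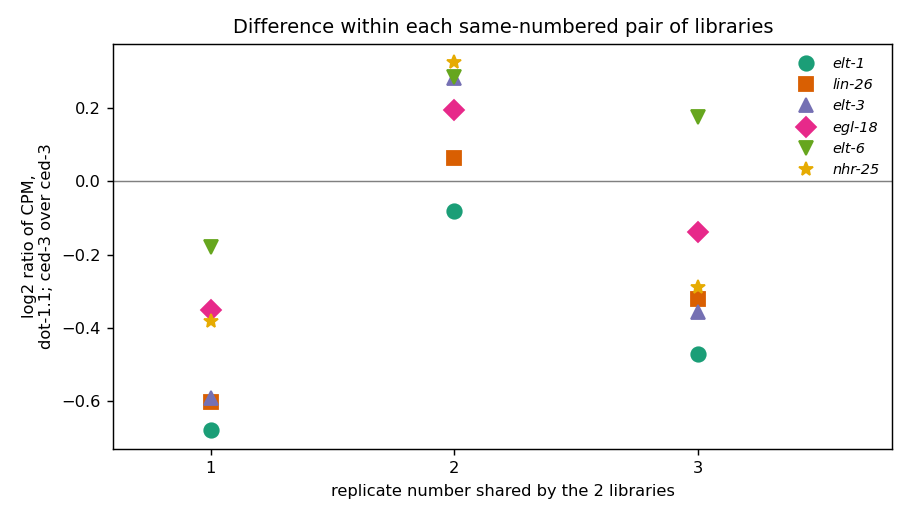
log2 ratio of CPM, double over single mutant, of each factor within each same-numbered pair of libraries. All 6 factors are below 0 in pair 1 and elt-1 is below 0 in every pair, while the other 5 factors are above 0 in pair 2.

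Pearson's r of log2(CPM + 0.5) over the 6 libraries described how alike the patterns were. Between factors it ran from -0.033 for elt-1 with elt-6 to 0.95 for lin-26 with egl-18, and it was 0.91 for egl-18 with nhr-25, 0.86 for elt-3 with nhr-25 and 0.77 for the neighbours egl-18 and elt-6. These values rest on 6 points that share genotype, library and scaling. Among the 10032 other tested genes with a mean of at least 5 CPM, the 2 with the highest r were Y51F10.4 (0.99) and ire-1 (0.99) for elt-1. They were rde-1 and tag-340 for lin-26 (0.99 each), pigo-1 and T23B12.6 for elt-3 (0.98 each), and R09H10.3 and slc-30A5 for egl-18 (0.99 each). For elt-6 they were K02D3.2 and unc-115 (0.99 each), and for nhr-25 ztf-30 (0.996) and the pseudogene T15B7.10 (0.98). With so few libraries such values were common: between 54 genes for elt-3 and 242 genes for elt-6 reached an r of 0.9.

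The gene next to lin-26 was the only one of 26 further epidermal regulators that edgeR called with the block. lir-1 (F18A1.3, chromosome II, 7672005 to 7682363), which codes for a zinc finger protein related to LIN-26, lies upstream on the same strand, and 156 bp of its annotated exons overlap those of lin-26, where reads cannot be assigned to 1 gene by position. Its level was 63.4, 81.6 and 58.9 CPM in the double mutants, against 90.9, 109.8 and 104.4 CPM in the single mutants. Every double mutant library was below every single mutant library, as for 7.91% of tested genes. The fit with the replicate block called it lower, as it did 1.45% of tested genes. Its fitted ratio there was 0.664 (interval 0.566 to 0.778, log2 fold change -0.59 ± 0.0996 SE, adjusted p = 0.0252, edgeR). lir-1 was lower in 3 of 3 pairs, as were 25.3% of tested genes. Without the block it was not called (-0.58 ± 0.15; adjusted p = 0.223, edgeR). The blocked call was lost without pair 1 (-0.64, adjusted p = 0.202) and without pair 3 (-0.45, adjusted p = 0.161, edgeR). DESeq2 gave an adjusted p of 0.0616 without the block and 6.92e-05 with it. The third gene of this run, lir-2 (F18A1.4, chromosome II, 7667267 to 7671909), lies 95 bp upstream of lir-1 and was at 45.8, 52.4 and 52.4 CPM in the double mutants, against 58.0, 60.9 and 56.9 CPM in the single mutants. Its genotypes did not overlap either, and it was not called (blocked adjusted p = 0.17, edgeR).

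**Figure D4:**
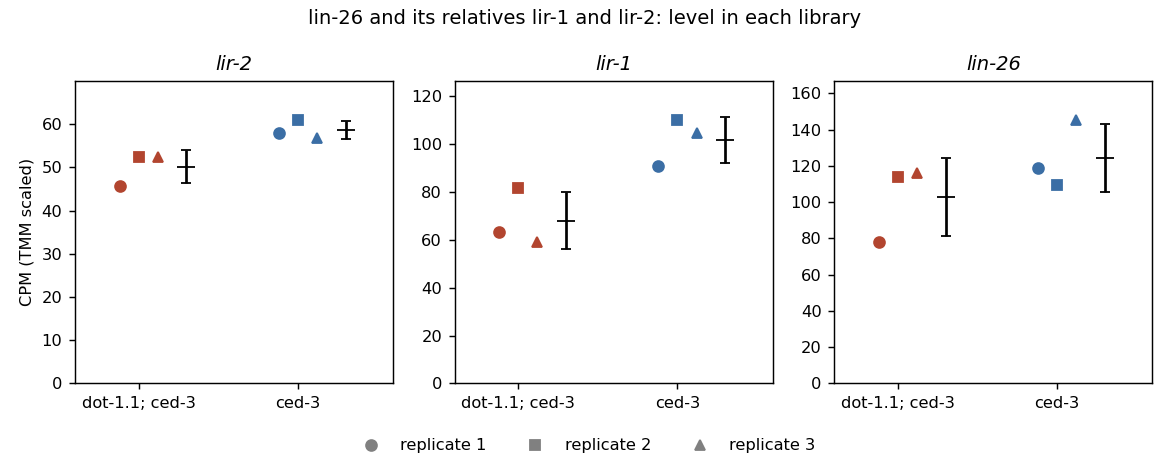
Level of lir-2, lir-1 and lin-26, 3 related genes in a row on chromosome II, in every library (CPM scaled by TMM, axes from 0), with the double mutants (red) left of the single mutants (blue) and the mean ± SD of 3 libraries in black. The genotypes are apart for lir-2 and for lir-1 (58.9 to 81.6 CPM against 90.9 to 109.8 CPM) and overlap for lin-26.

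Further regulators of epidermal cells were read from a list of 26 genes, all of which were tested. Without the block 0 were called by edgeR and by DESeq2, with 3 at an unadjusted p under 0.05 in edgeR. Of all 17365 tested genes, 2097 were at such a p. With the block edgeR called 1 lower, lir-1, where it called 1.45% of all tested genes lower, and DESeq2 called 3 lower, where it called 6.32% of its tested genes lower. In 19 of the 26 the fitted value was below 0, against 9054 of the 17365 tested genes, and the median log2 fold change was -0.18. Groups did not overlap for 4 lower genes and 1 higher gene, where 7.91% of tested genes were lower without overlap and 10.6% higher. The 2 largest fitted values, named after their values were seen, belonged to the nuclear receptor genes nhr-73 and nhr-74, which are neighbours on chromosome I. nhr-73 was at 0.52, 10.3 and 1.53 CPM in the double mutants, against 0.61, 0.73 and 1.25 CPM in the single mutants. nhr-74 was at 0.094, 6.58 and 0.18 CPM in the double mutants, against 0.15, 0.10 and 0.37 CPM in the single mutants. Both were high in double mutant replicate 2 only, and neither was called (adjusted p = 0.439 for nhr-73 and 0.462 for nhr-74, edgeR).

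The other GATA factors of the worm act mainly in the endoderm and gut. Of 7 such genes 5 were tested, and med-1 and med-2, which had at most 18 counts in a library, did not pass the filter on low counts. None was called by edgeR or DESeq2 with or without the block, with 1 at an unadjusted p under 0.05 in edgeR without it. Of all 17365 tested genes, 2097 were at such a p. Without the block edgeR called 0.0806% of tested genes higher and 0 lower, and DESeq2 1.99% of its genes higher and 0.469% lower. With the block these shares were 2.57% and 1.45% in edgeR, and 6.22% and 6.32% in DESeq2. All 5 fitted values were below 0, with a median log2 fold change of -0.40 and a range from -0.90 to -0.068. Over all 17365 tested genes, 9054 were below 0 and the median was -0.02. The gut factor elt-7 was at 5.83, 7.21 and 6.23 CPM in the double mutants, against 8.44, 9.19 and 7.84 CPM in the single mutants, without overlap (adjusted p = 0.423, edgeR). elt-4, a GATA gene of very low level, was at 0.63, 0.40 and 0.52 CPM in the double mutants, against 0.96, 1.13 and 0.80 CPM in the single mutants, also without overlap (adjusted p = 0.363, edgeR). Of all tested genes, 7.91% were lower without overlap. The endoderm factor end-1 averaged 3.27 ± 1.24 CPM in the double mutants and 4.53 ± 1.72 CPM in the single mutants (SD, n = 3 each; adjusted p = 0.624, edgeR).

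Genes that epidermal cells use to build the body wall were described by 3 lists. Over all tested genes, edgeR without the block called 0.0806% higher and 0 lower, with 2097 of 17365 at an unadjusted p under 0.05. With the block it called 2.57% higher and 1.45% lower. DESeq2 called 1.99% of its tested genes higher and 0.469% lower without the block, and 6.22% and 6.32% with it. Of 18 collagen genes, 15 were tested, since bli-1, dpy-13 and sqt-1 had at most 10 counts in a library, and 0 were called in either edgeR fit or by DESeq2 with or without the block, with 0 at an unadjusted p under 0.05. Their median log2 fold change was -0.08, with 11 of the 15 fitted values below 0 and 4 above. Without overlap, 2 of the 15 (dpy-9 and rol-6) were lower and 0 higher, where 7.91% of tested genes were lower and 10.6% higher. The 3 with the smallest p were dpy-9 (1.53 ± 0.52 against 2.13 ± 0.14 CPM), rol-8 (0.34 ± 0.051 against 0.51 ± 0.14 CPM) and rol-6 (1.17 ± 0.065 against 1.49 ± 0.15 CPM), double against single mutants (SD, n = 3 each), with adjusted p of 0.551, 0.584 and 0.597 in edgeR. Of 22 genes of the apical matrix and of secretion, 0 were called in the same 4 fits, with 0 at an unadjusted p under 0.05 and a median of -0.049. The lipocalin gene lpr-1 averaged 20.4 ± 4.52 CPM in the double mutants and 26.3 ± 6.69 CPM in the single mutants, che-14, a gene of apical secretion, 30.2 ± 3.8 and 36.5 ± 7.03 CPM, and let-653, a matrix gene, 62.0 ± 7.29 and 71.6 ± 11.9 CPM in the same order (SD, n = 3 each). These had the 3 smallest p of the 22, with adjusted p of 0.5325, 0.536 and 0.597 in edgeR. Of the 22 fitted values, 16 were below 0 and 6 above. Over all 17365 tested genes, 9054 fitted values were below 0 and 8311 above.

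The list of 21 genes of junctions, attachment to muscle and cell fusion lay on the other side of 0, with 16 fitted values above it and a median log2 fold change of 0.17, against 8311 values above it and a median of -0.02 over the 17365 tested genes. edgeR called 0 of them with or without the block, with 2 at an unadjusted p under 0.05 without it. Of all 17365 tested genes, 2097 were at such a p. DESeq2 called 0 without the block and 6 higher and 1 lower with it, where 6.22% of its tested genes were higher and 6.32% lower. The 6 higher genes were vab-10, pat-12, mup-4, hmr-1, ajm-1 and jac-1, and the lower gene was aff-1. hmp-2 was not among them (adjusted p = 0.0863, DESeq2 with the block). Values are given for pat-12, aff-1 and hmp-2, which had the 3 smallest p of the list in edgeR without the block. pat-12, a gene of the attachment structures between epidermis and muscle, was at 206.7 ± 46.3 CPM in the double mutants and 153 ± 16.6 CPM in the single mutants (SD, n = 3 each; blocked adjusted p = 0.0522, edgeR). The cell fusion gene aff-1 was at 31.8 ± 3.63 CPM in the double mutants and 43.6 ± 10.8 CPM in the single mutants (blocked adjusted p = 0.0645, edgeR). It was lower without overlap, as were 7.91% of tested genes. The beta-catenin gene hmp-2 was at 201.4 ± 20.7 CPM in the double mutants and 167.7 ± 12.99 CPM in the single mutants (blocked adjusted p = 0.108, edgeR). Without the block, the adjusted p of pat-12, aff-1 and hmp-2 was 0.389, 0.389 and 0.436 in edgeR.

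**Figure D5:**
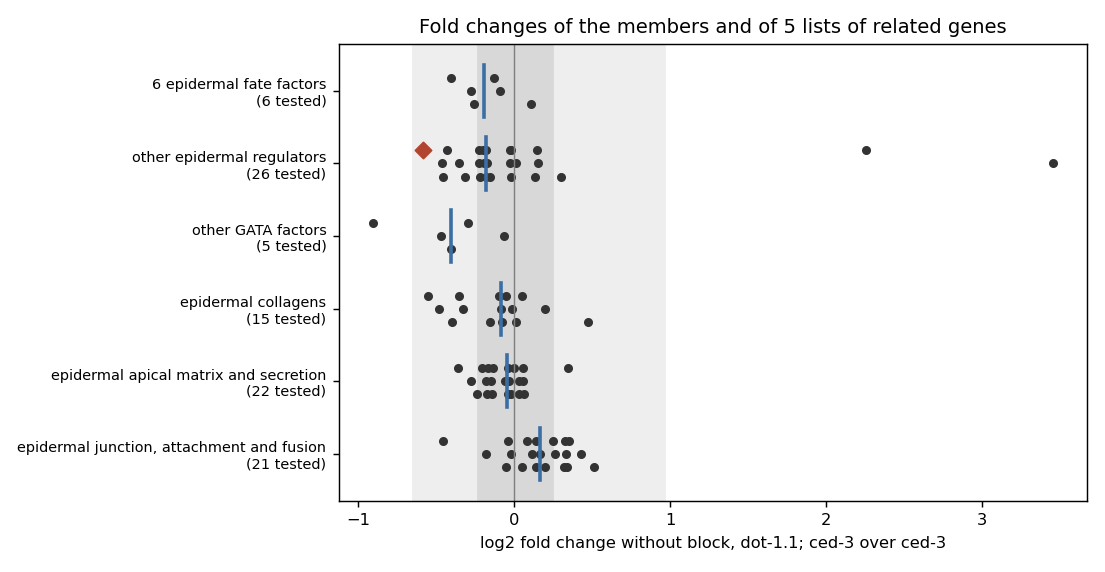
log2 fold change without the block, double over single mutant, of the 6 factors and of the tested genes of 5 lists; each point is a gene, blue lines are medians, and the grey bands hold the middle 50% and 90% of all tested genes. The red diamond is lir-1, the only gene shown that the blocked edgeR fit called, and the 2 points on the far right are nhr-73 and nhr-74.

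Markers of other cell types differed between the libraries as well. Library totals ran from 66316445 to 77957224 counts. The mutated gene dot-1.1 itself had 3980, 2144 and 2813 counts in the double mutants, against 4516, 2716 and 3349 counts in the single mutants, so its counts overlapped between genotypes and do not check the labels. The summed level of 8 body wall muscle markers was 3780 to 5849 CPM of the library total in the double mutants, against 3096 to 3943 CPM in the single mutants. Of these 8 muscle markers, 3 (hlh-1, unc-120 and pat-10) had a log2 fold change below 0, and the median of the 8 was 0.36. Without overlap, 1 of the 8 (lev-11) was higher and 0 were lower. The sum of 6 pharynx markers was 565 to 1001 CPM in the double mutants, against 317 to 423 CPM in the single mutants. The pharyngeal myosin genes myo-1 and myo-2 carried the pharynx difference (log2 fold changes 1.48 and 1.75), and both were higher without overlap. Below 0 were 3 of the 6 pharynx markers, and 1 of them, pqn-8, was lower without overlap. Sums of 8 neuron markers (559 to 638 against 500.5 to 528 CPM) and 7 intestine markers, of which elt-2 and elt-7 are also in the list of GATA factors (641 to 738 against 546 to 583 CPM) did not overlap between the double and the single mutants. Of the 8 neuron markers, 2 (unc-119 and ric-4) were below 0, with a median log2 fold change of 0.21. Without overlap, 4 of the 8 (unc-31, egl-3, sbt-1 and rab-3) were higher and 0 were lower. Of the 7 intestine markers, 4 were below 0, with a median log2 fold change of -0.012. Without overlap, act-5 (200 against 147 CPM, means) and ifb-2 (286 against 226 CPM) were higher in the double mutants, and elt-7 was lower. Of all tested genes, 10.6% were higher and 7.91% lower without overlap. With the block, edgeR called 3 of 8 muscle, 2 of 6 pharynx, 2 of 8 neuron and 1 of 7 intestine markers higher, and none lower, where 2.57% of all tested genes were called higher and 1.45% lower. Of 14 germ line and maternal markers, 1 was called lower and none higher, and their sum was 526 to 991 CPM in the double mutants, against 725 to 963 CPM in the single mutants. Fitted values were below 0 for 12 of the 14, with a median log2 fold change of -0.26. The 10 adult and sperm markers summed to 4.01 to 4.28 CPM in the double mutants, against 1.501 to 2.88 CPM in the single mutants. Of these 10, 7 were tested and 6 were above 0, with a median of 1.66. Levels were higher without overlap for 4 of them, as for 10.6% of tested genes, and edgeR called none with or without the block. None of these markers was at 0 in every library. Double mutant replicate 1, in which elt-1, lin-26, egl-18 and elt-6 were lowest, had the highest muscle and pharynx sums (5849 and 1001 CPM) and the lowest germ line and maternal sum (526 CPM). The part of cell type or embryonic age in the levels of the 6 factors was not tested.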

How the data were processed

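The deposited table holds raw read counts per gene, made by the authors with HISAT2 2.0.5 and StringTie on build WBcel235 (per the submitters' processing notes). Neither labels nor notes name the counter or its strand setting. Columns were assigned to samples by the labels' descriptions. Of 46659 rows, 46180 matched 1 gene of Ensembl release 115 by sequence name, which gave symbols, positions and exon lengths. edgeR 4.0.16 in R 4.3.3 tested the 17365 genes that filterByExpr kept, with TMM scaling and genotype as the only term, and steps were tested on simulated data. P-values are two-sided. Fold changes are double over single mutant.

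Alternatives were a replicate block, other scaling, no filter, DESeq2 1.42.0 and leaving out libraries or pairs. Deviations from the genotype mean correlated at 0.32, 0.30 and 0.46 between same-numbered libraries, all above the limit of 0.1. The numbers were therefore treated as pairs in the blocked fits and in the comparisons within pairs. The main fit ignored the pairs, and so do the edgeR values given without mention of the block.

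The 6 factors and the lists were chosen with earlier results of these data known. From each list, genes called in either edgeR fit were named, otherwise the 3 with the smallest p; lir-2, nhr-73 and nhr-74 were added after their values were seen. Intervals cover the spread between libraries, and the depth gave at least 1143 counts of each factor in each library.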

Additional observations from a re-analysis of the deposited data

How the results depend on the processing

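Of 90 values of the 6 factors under 15 alternatives, 79 kept their direction and their side of the threshold, 5 passed the test and 6 changed sign; the cause was not tested. The 5 that passed were elt-1 with the replicate block in DESeq2 (-0.42) and, without pair 2 in the blocked edgeR fit, elt-1 (-0.58), lin-26 (-0.46), elt-3 (-0.47) and nhr-25 (-0.33). Without pair 1 in that fit, egl-18 was at 0.017 and nhr-25 at 0.0070, and without pair 2 elt-6 was at -0.00045. Leaving out single libraries gave -0.37 to -0.13 for lin-26 (highest without double mutant replicate 1), -0.45 (without single mutant replicate 2) to -0.10 (without single mutant replicate 1) for elt-3, -0.17 to 0.0067 for egl-18, -0.069 to 0.26 for elt-6 and -0.27 to 4.8e-05 for nhr-25. The gene nhr-74 ran from -0.55, without double mutant replicate 2, to 4.18 when single libraries were left out, and was at -0.87 in the blocked fit without pair 2.

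Genes called over the whole table numbered 14, and 4 without the filter, 28 with upper-quartile factors, 697 with the replicate block, 466 by DESeq2 and 1879 by DESeq2 with the block; they numbered 1 to 43 when single libraries were left out, and 11, 2476 and 181 in the blocked fit without pair 1, pair 2 and pair 3. Calls among the 26 regulators numbered 1 with the block, 3 by DESeq2 with the block and 4 in the blocked fit without pair 2; among the junction genes 7 by DESeq2 with the block, and 5 and 1 in the blocked fit without pair 2 and pair 3; and among the apical matrix genes 2 in the blocked fit without pair 2. The blocked fit changed no other call among the factors and lists. With 3 libraries per genotype, the unblocked edgeR intervals of the factors other than elt-1 include no difference. Their lower bounds are 0.61 to 0.79 times and their upper bounds 1.09 to 1.47 times the single mutant level.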
